A study of Mus musculus with 8 samples.

Results

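The genes described here encode enzymes that make 5-hydroxymethylcytosine (5hmC) or its precursor: Tet1, Tet2 and Tet3, which oxidise 5-methylcytosine to 5hmC, and Dnmt3a, which methylates cytosine. All deposited 5hmC peaks that overlapped one of 4 mm9 intervals were kept: chr10:62250000-62360000 for Tet1, chr3:133110000-133225000 for Tet2, chr6:83295000-83425000 for Tet3 and chr12:3790000-3930000 for Dnmt3a. The intervals held 341 of the 393283 peaks in the 8 lists, with 22 at Tet1, 25 at Tet2, 138 at Tet3 and 156 at Dnmt3a. Each interval was longer than its gene, which spans 82.9, 81.5, 94.8 and 112.9 kb in RefSeq (GRCm38.p6), so peaks near the edges can lie outside it. Gene models on mm9 were not used here, and peaks are therefore not assigned to exons, introns or untranslated regions.

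Methylated cytosine in DNA is laid down de novo by enzymes such as Dnmt3a, which acts mainly at CG dinucleotides and, in neurons, at other cytosines too. Tet dioxygenases then oxidise the methyl group, first to 5hmC and further to forms that base excision repair can remove. In neurons 5hmC is abundant and long-lived, and it is found chiefly within the bodies of genes. Peaks of 5hmC over these 4 genes report the mark on the genes themselves and give no measure of their expression or of enzyme activity.

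Hippocampal DNA of C57BL/6 mice was fragmented, a tagged glucose was transferred to 5hmC, and the biotinylated fragments were captured and sequenced. Young mice, labelled 6 weeks, and aged mice, labelled 18 months, lived in standard cages (control) or also spent 5 h per day over 4 weeks in a big cage offering toys, tunnels and voluntary exercise (enriched). Each combination of age and housing had 2 samples, and the sources used here do not say whether these came from separate mice, so p-values measure only the spread between samples, which may be technical. The tissue is a mixture of cells, and fewer cells that carry the mark cannot be told apart from less of it per cell.

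Depth of sequencing is unknown, and the lists differed in length from 25548 to 78980 peaks and from 13.7 to 86.5 Mb of genome under peaks. The shortest lengths were those of the aged enriched samples (18.3 and 13.7 Mb). Aged enriched replicate 2 also stood apart in its peaks, whose median width was 430 bp (650 to 952 bp elsewhere) and of which 72.4% had a score of at least 100 (9.92% to 31.9% elsewhere). The differences scaled to the list that involve it are therefore also given below without it, as are those that passed without scaling. Values under other settings mostly include it. Lengths are therefore given as found and also as a fold over the average density of peaks in the same list.

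CG dinucleotides are the main sites that these enzymes modify, so 2 promoters are shown, of a gene with few peaks over its interval (Tet2) and one with many (Dnmt3a). The RefSeq sequences (GRCm38.p6) are the 250 bases before the start listed for Tet2 (chromosome 3, minus strand) and before the first of 3 starts listed for Dnmt3a (chromosome 12, plus strand), with each CG in capitals:
Tet2: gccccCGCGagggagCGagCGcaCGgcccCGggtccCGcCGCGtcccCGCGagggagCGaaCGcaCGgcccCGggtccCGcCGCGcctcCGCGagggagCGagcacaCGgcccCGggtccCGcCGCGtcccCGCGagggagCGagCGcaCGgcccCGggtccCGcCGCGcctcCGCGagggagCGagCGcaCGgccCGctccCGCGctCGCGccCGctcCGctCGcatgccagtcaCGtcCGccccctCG
Dnmt3a: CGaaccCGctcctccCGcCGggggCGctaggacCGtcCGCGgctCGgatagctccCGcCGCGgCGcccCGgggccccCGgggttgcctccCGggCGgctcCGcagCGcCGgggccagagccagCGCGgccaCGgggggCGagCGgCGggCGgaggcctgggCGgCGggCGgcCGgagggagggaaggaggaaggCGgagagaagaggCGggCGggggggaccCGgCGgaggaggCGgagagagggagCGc
The Tet2 stretch held 51 CG and the Dnmt3a stretch 38, where CG reads the same on both strands. Among 32851 promoter stretches of the same length the median was 6 CG and 92.1% held at least 1. As many CG as at Tet2 were found in 0.067% of them and as many as at the first start of Dnmt3a in 1.88%. Starts 2 and 3 of Dnmt3a had 40 and 15 CG. First starts of Tet1 and Tet3 had 15 and 17 CG. The promoters and the peaks are on different builds, so no peak was placed on these sequences. A link between the number of CG and the number of peaks was not tested.

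Tet3 and Dnmt3a were densely covered by 5hmC peaks in each of the 8 samples, whereas Tet1 and Tet2 were not. Density over the Tet3 interval was 6.20-fold to 12.9-fold the average of the sample's own list (median 7.81) and over Dnmt3a 3.88-fold to 8.57-fold (median 6.86). At Tet1 it ran from 0.364-fold to 3.11-fold (median 1.08) and at Tet2 from 0 to 2.08-fold (median 1.41). The lowest value of Tet3 and Dnmt3a lay above the highest of Tet1 and Tet2, and both of these were from aged enriched replicate 2. In the other 7 samples the lowest was 6.14 (Dnmt3a, young control replicate 2) and the highest 2.08 (Tet2, young enriched replicate 2). The rest of the genome was divided into windows of one length, within the 110 to 140 kb of the intervals. The windows were not limited to genes, so they do not compare these genes with other genes. Of these windows, 97.8% to 99.7% had a lower density than Tet3 in the same list and 93.3% to 98.9% a lower one than Dnmt3a. These shares were 59.4% to 90.0% for Tet1 and 0% to 83.7% (median 76.4%) for Tet2, with 0% in aged enriched replicate 1.

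**Figure D1:**
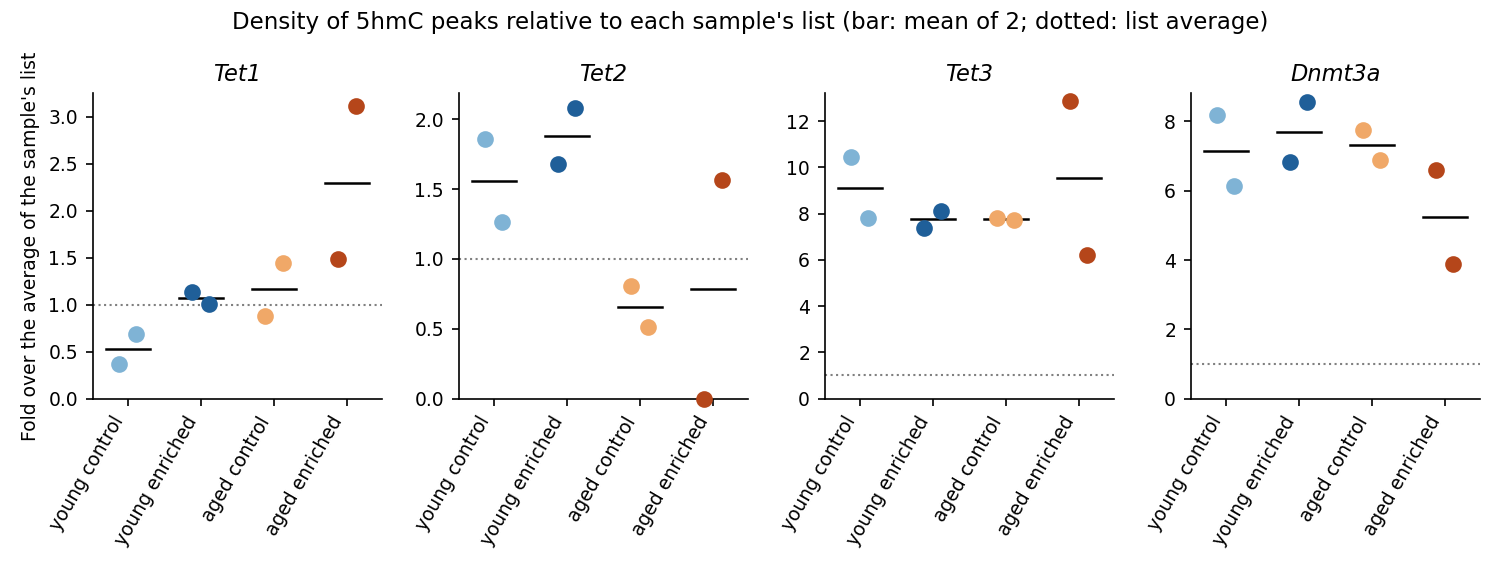
Density of 5hmC peaks in each interval (y axis, fold over the average density of the same sample's list) for the 4 groups (x axis), with 1 point per sample, a bar at the mean of 2 and a dotted line at the list average of 1. Points of Tet3 lie between 6.20 and 12.9 and those of Dnmt3a between 3.88 and 8.57, while Tet1 and Tet2 stay at or below 3.11.

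Tet1, a dioxygenase with a DNA-binding CXXC domain, carried 1 to 4 peaks per sample. Length under peaks (replicates 1 and 2) was 687 and 2493 bp for young control and 2647 and 2597 bp for young enriched samples. It was 2163 and 1895 bp for aged control and 1139 and 1782 bp for aged enriched samples. As found, both young enriched samples lay above both young control samples (as in 5.5% of intervals and windows), and both aged enriched samples below both aged control samples (as in 40.2%). As a fold over the list, the highest value was in aged enriched replicate 2 (3.11) and the lowest in young control replicate 1 (0.364), and both aged enriched samples lay above all other samples, as in 7.23% of intervals and windows. Peaks of Tet1 formed 14 merged regions, where peaks of any sample that overlap by at least 1 bp are joined, and 11 of them had a peak in 1 sample alone.

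The most shared Tet1 region, at chr10:62296423-62297386 (964 bp), had a peak in 5 samples. These were both young control, both aged enriched and the second young enriched sample. Its rank by score within the list was at the 94.9 percentile in aged enriched replicate 2 and between the 19.7 and 69.0 percentile in the other samples. The score is the authors' value for a peak and is compared only within a list. Lists differ in length, so percentiles from different lists do not rank samples against each other. At chr10:62276119-62276778 a peak was present in both aged control samples and young enriched replicate 1 and absent from the aged enriched ones. The widest Tet1 region, chr10:62302576-62303948 (1373 bp), had a peak in aged control replicate 2 only. No list had a peak over the last 24.3 kb of the interval.

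Tet2, which lacks a CXXC domain of its own, had a greater length under 5hmC peaks in the young lists than in the aged lists. The young control samples had 3666 and 4775 bp and the young enriched samples 4074 and 5585 bp. The aged control samples had 2068 and 701 bp and the aged enriched samples 0 and 939 bp. All 4 young samples lay above all 4 aged samples, with 4525 ± 842 bp in young and 927 ± 859 bp in aged samples (SD, n = 4 each). The same held for 12.4% of the 13448 intervals and windows with a peak in any list. As a fold over the list the ages overlapped, as aged enriched replicate 2 had 1.57 and young control replicate 2 had 1.26 (on this scale all aged lay below all young samples in 2.35% of intervals and windows). In the other aged samples the fold was 0.808, 0.510 and 0, below each young sample.

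One Tet2 region was found in each young list. At chr3:133150033-133151511 (1479 bp) all 4 had a peak, ranked between the 83.7 and 93.0 percentile of its list by score. In aged control replicate 1 the region had a peak at the 7.73 percentile, and the other 3 aged lists had none there. The widest Tet2 region, chr3:133128917-133130737 (1821 bp), had a peak in both young control samples and young enriched replicate 2. Of the 3 peaks of aged enriched replicate 2, 1 overlapped a peak of another sample. Both aged control lists, with 3 and 1 peaks, had no region in common.

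Tet3, a dioxygenase expressed in neurons, had the highest median density of the 4, although in young enriched replicate 2 Dnmt3a lay above it (8.57-fold against 8.11-fold). Its interval held 18 and 27 peaks (young control), 19 and 20 (young enriched), 16 and 14 (aged control) and 13 and 11 (aged enriched). Length under peaks was 23263 and 33351 bp, 20292 and 24613 bp, 22640 and 12005 bp, and 11637 and 4197 bp in the same order. Young samples had 18 peaks or more and aged samples 16 or fewer, while lengths overlapped between ages. Scaled to the number of peaks in the list, the log2 age difference in Tet3 peak number was 0.051 ± 0.20 (SE) in the limma fit described below. The split by peak number without scaling also held at Tet2 and was found in 4.5% of intervals and windows. Rows where a young sample has no peak cannot show it, by number or by length. Its share among densely covered rows was not computed. As a fold over the list the values were 10.4 and 7.79, 7.39 and 8.11, 7.82 and 7.73, and 12.9 and 6.20. Both the highest and the lowest of these were aged enriched samples.

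The 138 Tet3 peaks merged into 40 regions that covered 42.7% of the interval. The only region at the 4 genes with a peak in all 8 samples was chr6:83314801-83317601 (2801 bp), a pattern found in 1.31% of all merged regions. Its rank by score within the list ran from the 50.6 percentile (aged control replicate 2) to the 98.7 (young control replicate 1) and 99.6 percentile (young enriched replicate 1). The neighbouring region, chr6:83317655-83321146 (3492 bp), chosen after its values were seen, had a peak in 7 samples. There both aged control samples were at the 98.7 percentile of their lists and the young samples between the 73.1 and 89.0 percentile of theirs. These ranks do not order the samples.

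The widest region of the 4 genes, at chr6:83352023-83357453 (5431 bp), was also on Tet3 and had a peak in 7 samples. It reached the 99.4 percentile of the list in young control replicate 1 and the 99.2 percentile in aged enriched replicate 1. In all 3 Tet3 regions with a peak in 7 samples, aged enriched replicate 2 was the one without. Both young control and neither young enriched samples had a peak at chr6:83403182-83405615 and chr6:83311218-83312216. Aged control replicate 1 and aged enriched replicate 1 had peaks at both, and aged control replicate 2 at the first. The last 16.2 kb of the interval held no peak.

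Dnmt3a, the main de novo methyltransferase of neurons after birth, had its fewest peaks in the aged enriched samples. Counts were 22 and 29 (young control), 20 and 28 (young enriched), 28 and 14 (aged control) and 9 and 6 (aged enriched). Length under peaks was 19649 and 28282 bp, 20194 and 28029 bp, 24164 and 11528 bp, and 6427 and 2830 bp in the same order. Both aged enriched samples lay below the other 6, as they did at Tet3 and in 32.7% of intervals and windows. As a fold over the list they did not, since aged enriched replicate 1 (6.60) lay above young control replicate 2 (6.14). Against the aged control samples alone, both were lower in length (40.2% of intervals and windows). They were also lower as a fold over the list (7.75 and 6.89 in aged control, 6.60 and 3.88 in aged enriched), as in 13.3% of intervals and windows. Rows where an aged control sample has no peak cannot show either order.

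Dnmt3a peaks formed 48 regions, of which 3 had a peak in 7 samples and none in 8. The first, chr12:3844119-3845882 (1764 bp), lacked a peak in young control replicate 1 and was at the 96.4 percentile of the list in aged control replicate 1. The other 2 were chosen after their values were seen. One, chr12:3849069-3850204, lacked one in aged control replicate 2 and was, with the first, the only Dnmt3a region with peaks in both aged enriched samples. The other, chr12:3872328-3875023 (2696 bp), lacked one in aged enriched replicate 2. The widest, chr12:3894432-3897955 (3524 bp), had peaks in both aged control, both young enriched and 1 young control sample.

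Of the 8 lists, 6 had a peak at chr12:3888421-3890071, and the 2 without were the aged enriched ones. Ranks there were at the 69.5 to 94.9 percentile in the young control and aged control lists and at 83.5 and 93.0 in young enriched lists. The aged enriched lists had the least length under peaks, and the share of all regions with this pattern was not computed. At chr12:3879237-3880691 both aged control and both young enriched samples had a peak and the other 4 did not. The same 4 samples had a peak at chr12:3810902-3811752. How often this pattern over 8 samples occurred among all regions was not computed either. Both young control and neither young enriched samples, with aged control replicate 1 and aged enriched replicate 1, had one at chr12:3816503-3817370 and chr12:3910385-3911330.

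**Figure D2:**
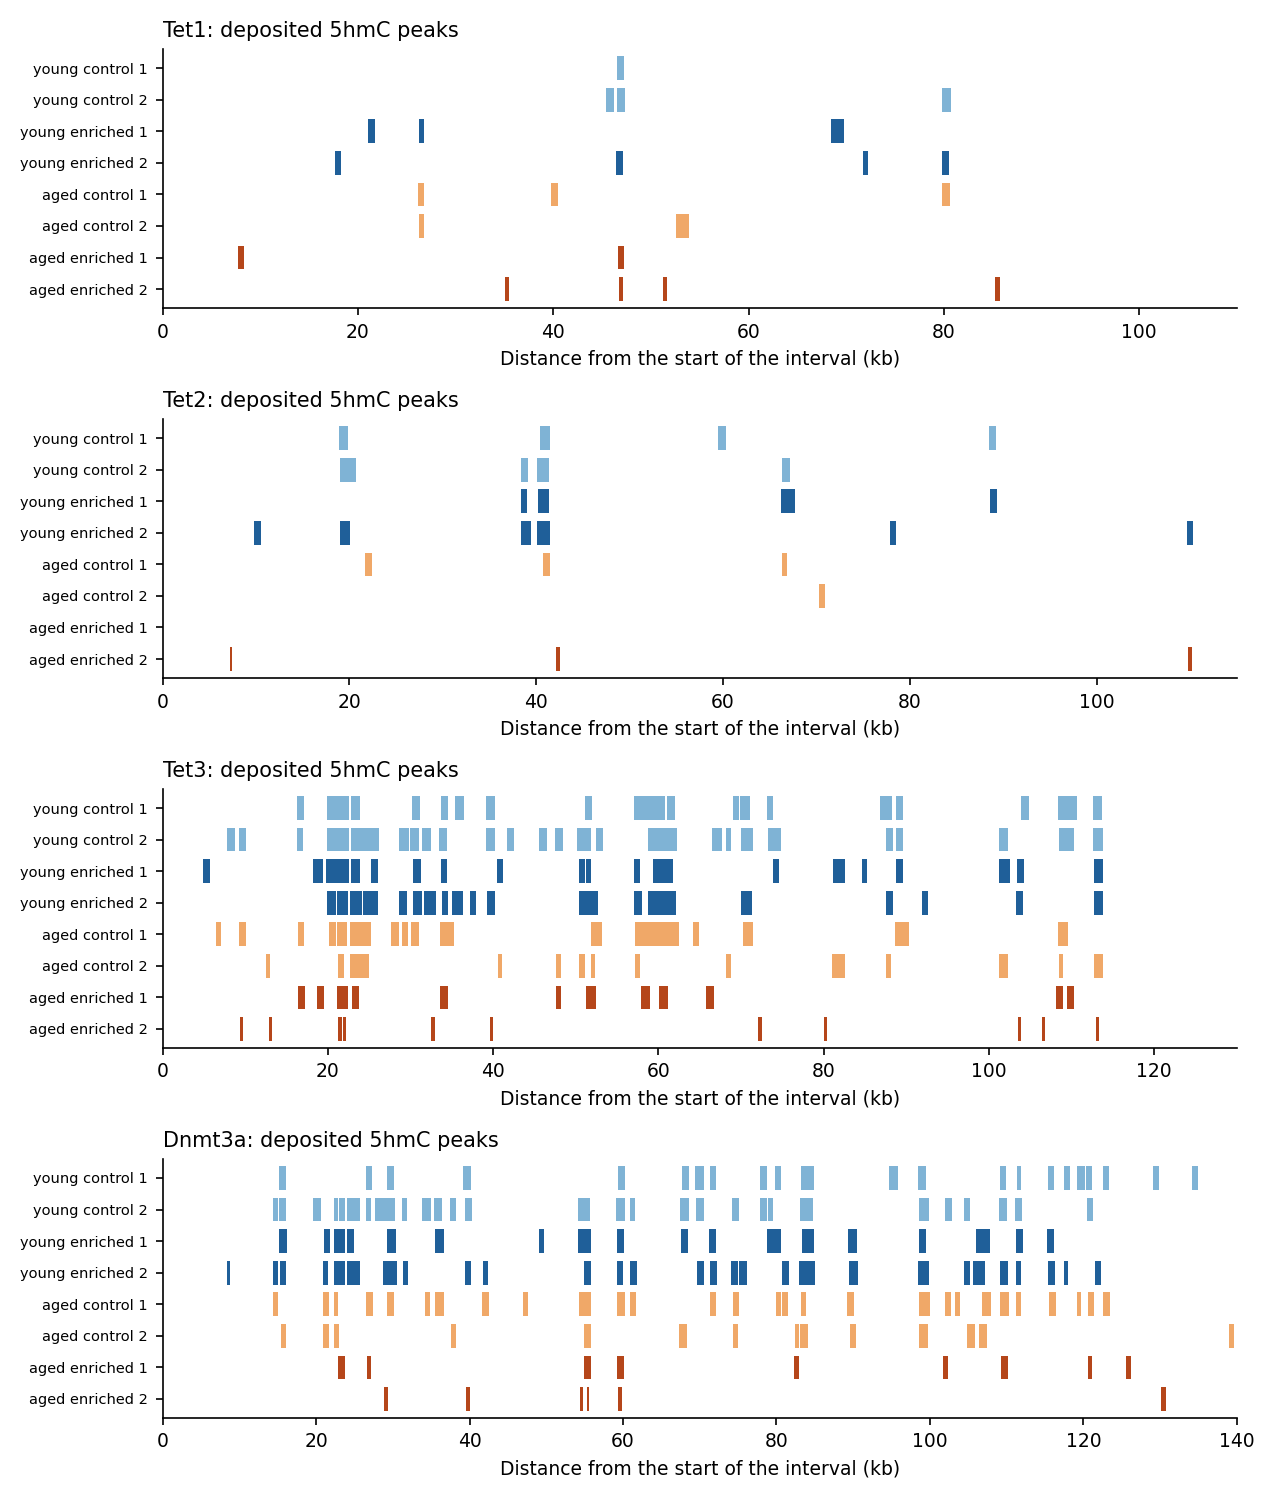
Deposited 5hmC peaks over the 4 intervals, with distance from the start of each interval in kb on the x axis, 1 row per sample and 1 bar per peak drawn to scale. Tet3 and Dnmt3a hold 138 and 156 peaks against 22 and 25 at Tet1 and Tet2, and Tet2 has no peak in aged enriched replicate 1.

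Differences between groups were tested in a fit with limma of log2 length under peaks, scaled to the length under peaks of the whole list, over 10184 rows (the 4 intervals and all windows that passed a minimum). Between ages, none of the 4 genes passed an adjusted p of 0.05. The difference of aged minus young samples was −1.36 ± 0.63 (SE) at Tet2 (limma unadjusted p = 0.0483, adjusted p = 0.664) and 0.88 ± 0.48 at Tet1 (adjusted p = 0.719). It was −0.27 ± 0.22 at Dnmt3a (adjusted p = 0.794) and −0.0031 ± 0.23 at Tet3 (adjusted p = 0.998). The median over all rows was −0.11. By limma 0% of rows were called for age, with 749 at an unadjusted p under 0.05. In equally long lists Tet1 had 2.65 ± 0.73 (limma adjusted p = 0.458). These lists held the 25548 highest-scoring peaks of each sample, which was the whole list of aged enriched replicate 1. Young control replicate 1 and both young enriched samples then kept no Tet1 peak. Their highest Tet1 peaks ranked at the 19.7, 37.8 and 50.7 percentile of the full lists. The value therefore rests on samples at the floor. Without aged enriched replicate 2 the difference was 0.64 at Tet1, 0.25 at Tet3 and −0.083 at Dnmt3a. The Tet2 difference was then −2.10 (limma adjusted p = 0.0554), and without aged enriched replicate 1, which had no Tet2 peak, it was −0.62.

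Without scaling to the list, the length under peaks fell with age at Tet2, Tet3 and Dnmt3a, where 31% of all rows were called, but most of the fits that left out 1 sample lost these calls. On this scale limma gave −2.03 ± 0.58 (SE) at Tet2 (adjusted p = 0.00953), −1.17 ± 0.41 at Tet3 (adjusted p = 0.0236) and −1.41 ± 0.41 at Dnmt3a (adjusted p = 0.0108). Tet1 had −0.13 ± 0.59 (adjusted p = 0.853). The median of all rows was −1.03, and relative to it the differences were −0.39 at Dnmt3a, −0.14 at Tet3 and 0.89 at Tet1, while Tet2 lay about 1 log2 unit below it. Of the aged lists, 3 were shorter than every young list (31.4, 18.3 and 13.7 Mb against 45.0 Mb or more), and the values with scaling are those above. Without aged enriched replicate 2 none of the 3 genes passed, at −2.41 for Tet2 (limma adjusted p = 0.0658), −0.83 for Tet3 (0.165) and −1.15 for Dnmt3a (0.0940), and 0.118% of rows were called. The 3 calls were lost as well without young control replicate 2, either young enriched sample or aged control replicate 2, and that of Tet2 also without aged enriched replicate 1 (limma adjusted p from 0.0599 to 0.157). They were kept without aged control replicate 1 (limma adjusted p = 0.00242 for Tet2, 0.00805 for Tet3 and 0.00255 for Dnmt3a) and without young control replicate 1 (0.0169, 0.0286 and 0.0171), and those of Tet3 and Dnmt3a without aged enriched replicate 1 (0.0425 each).

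Housing in aged mice gave no difference that passed at any of the 4 genes after scaling. Enriched minus control was −0.51 ± 0.31 (SE) at Dnmt3a (limma adjusted p = 0.471), 0.81 ± 0.68 at Tet1 (0.609), −0.45 ± 0.89 at Tet2 (0.846) and 0.20 ± 0.32 at Tet3 (0.809), with adjusted p in brackets. By limma 0% of rows were called, with 1409 at an unadjusted p under 0.05. Without scaling, Dnmt3a fell by 1.84 ± 0.59 (limma adjusted p = 0.0256), where 12.8% of rows were called and the median of all rows was −0.95. Relative to that median, Dnmt3a had −0.89. This call was lost without aged enriched replicate 2 (−1.31, limma adjusted p = 0.359), aged enriched replicate 1 (−2.37, 0.0545), aged control replicate 1 (−1.32, 0.401) or either young enriched sample (−1.84 in both, 0.102 and 0.103). It was kept without either young control sample (−1.84, limma adjusted p = 0.0409 and 0.0405) or aged control replicate 2 (−2.36, 0.0128). Without aged enriched replicate 1 the scaled Dnmt3a difference was −0.88 (limma adjusted p = 0.0827) and without replicate 2 it was −0.14. Tet3 had 0.71 without aged enriched replicate 2 and −0.32 without replicate 1. Tet2 had −1.94 and 1.04, and Tet1 0.33 and 1.29.

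Housing in young mice gave scaled differences of 0.81 ± 0.68 (SE) at Tet1, 0.25 ± 0.89 at Tet2, −0.22 ± 0.32 at Tet3 and 0.11 ± 0.31 at Dnmt3a. All 4 had a limma adjusted p of 1, 0% of rows were called, and 86 rows had an unadjusted p under 0.05. At Dnmt3a the means were 23966 ± 6105 bp in control and 24112 ± 5540 bp in enriched samples (SD, n = 2 each), a gap far smaller than the spread within either group. The difference between ages in the effect of housing was largest at Tet2 (−0.70 ± 1.25, limma adjusted p = 0.931) and Dnmt3a (−0.62 ± 0.43, adjusted p = 0.815). At Tet3 it was 0.41 ± 0.45 (adjusted p = 0.882) and at Tet1 −0.0036 ± 0.96 (adjusted p = 1.00). Without aged enriched replicate 2 it was −2.19 at Tet2, −0.25 at Dnmt3a, 0.93 at Tet3 and −0.48 at Tet1. With all samples 0% of rows were called by limma, with 611 at an unadjusted p under 0.05.

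**Figure D3:**
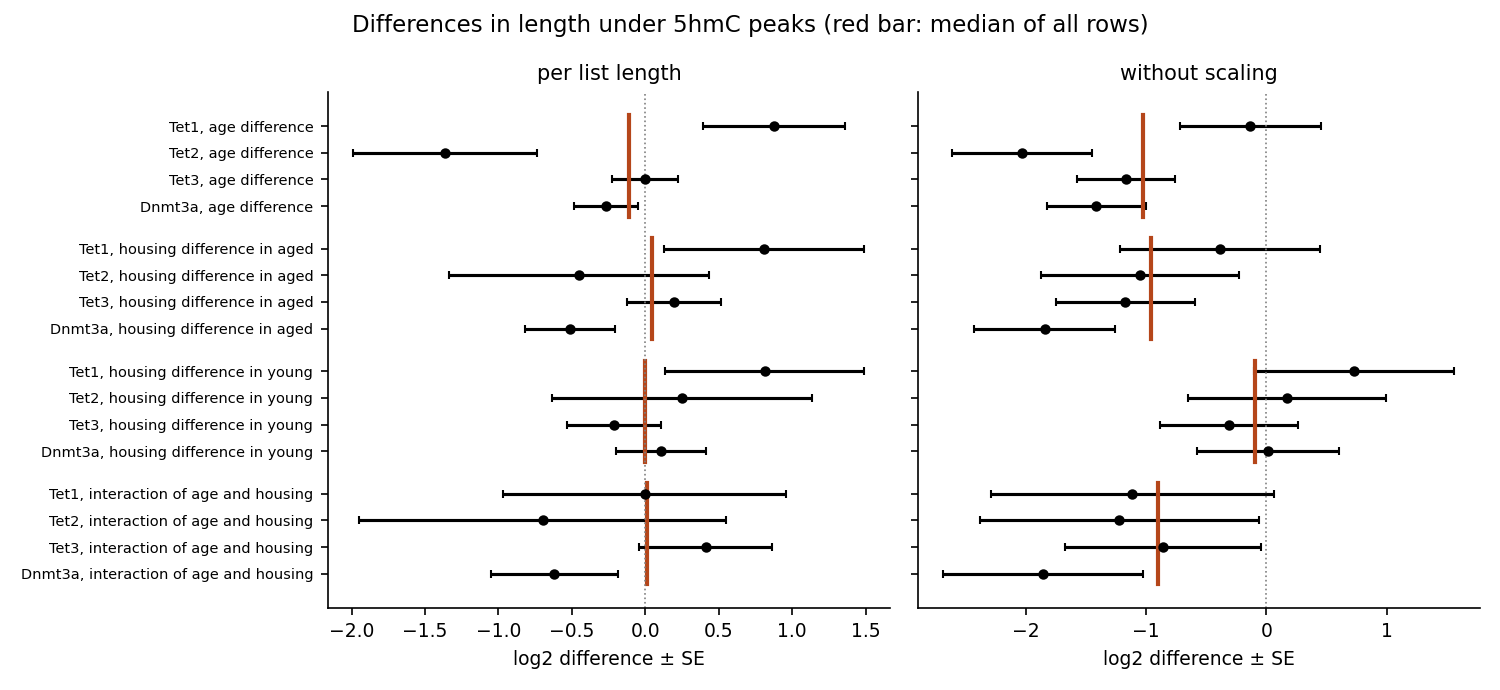
Log2 differences in length under 5hmC peaks (x axis, ± SE) for each gene and contrast (y axis), scaled to the list on the left and without scaling on the right, with a red bar at the median of all rows of the fit. Age differences sit at −1.36 for Tet2 and 0.88 for Tet1 when scaled, and the medians move to −1.03 for age and −0.95 for housing in aged mice without scaling.

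**Figure D4:**
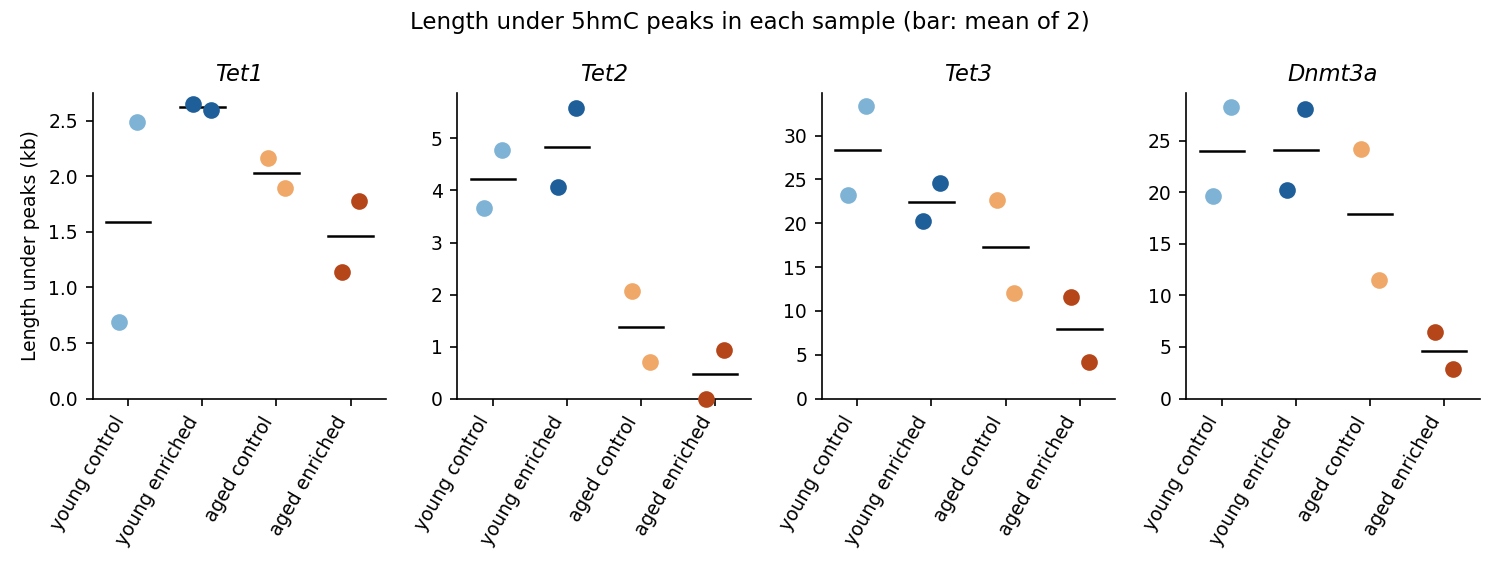
Length under 5hmC peaks in kb (y axis) in each sample of the 4 groups (x axis), with 1 point per sample and a bar at the mean of 2. Tet2 is the one interval where all 4 young samples lie above all 4 aged samples, and both aged enriched samples are the lowest at Dnmt3a.

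Positions of peaks recurred between samples at Tet3 and Dnmt3a more than at Tet1 and Tet2. A peak in 5 or more samples was found in 8 of 40 Tet3 regions and 10 of 48 Dnmt3a regions, against 1 of 14 at Tet1 and 1 of 13 at Tet2, and in 14.4% of all 156744 regions. Regions found in 1 sample made up 35.0% at Tet3, 27.1% at Dnmt3a, 53.8% at Tet2 and 78.6% at Tet1, against 46.7% of all regions. These shares are descriptions without a test, and Tet3 and Dnmt3a were also the intervals with more of their length under peaks (42.7% and 38.8% under a peak of any sample, against 9.57% and 10.1%).

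Both young control samples had a peak in 14 Tet3 regions, which were 87.5% of the regions of replicate 1 and 58.3% of those of replicate 2. The young enriched samples shared 8 regions (50.0% and 53.3%), the aged control samples 5 (33.3% and 38.5%) and the aged enriched samples 1 (10.0% of each). At Dnmt3a the young control samples shared 13 regions (59.1% and 48.1%) and the young enriched samples 14 (73.7% and 53.8%). The aged control samples shared 8 there (28.6% and 66.7%) and the aged enriched samples 2 (22.2% and 40.0%). Over all regions the shares were 67.9% and 37.3% for young control and 52.9% and 51.0% for young enriched samples. They were 32.2% and 50.9% for aged control samples, so over all regions too they differed between groups. Over the 4 genes both aged enriched samples shared 19.0% and 18.2% of their regions, close to the 20.9% and 17.3% over all regions. Of the 24 peaks of aged enriched replicate 2 at the 4 genes, 62.5% lay in a region with a peak of another sample, against 86.0% to 91.7% in the other lists. Over whole lists the shares were 67.0% and 78.1% to 87.2%.

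No region of the 4 genes separated all samples of 1 age, or of 1 housing, from all others. Such regions made up 0.894% (young only), 0.00957% (aged only), 0.014% (enriched only) and 0.209% (control only) of all merged regions. Within aged mice, 6 of the 115 regions were found in both control samples and no enriched sample, a share near the background of 5.6%. Of the 6, 5 were on Dnmt3a, which holds 48 of the 115 regions. A peak in both aged enriched samples and no aged control sample was found in 1 region, on Tet1, against 0.561%. Within young mice 4 regions, on Tet3 and Dnmt3a, had a peak in control samples only (background 2.78%) and 2, on Dnmt3a, in enriched samples only (2.13%).

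**Figure D5:**
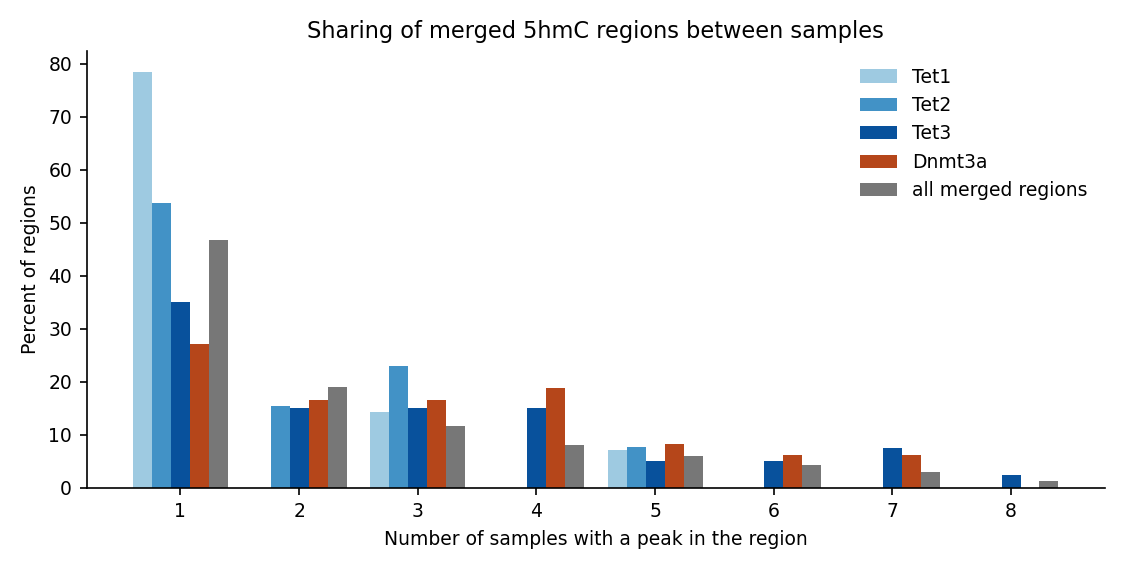
Percent of merged 5hmC regions (y axis) by the number of samples with a peak in them (x axis, 1 to 8), for each gene and for all 156744 regions. Regions found in 1 sample make up 78.6% at Tet1 and 27.1% at Dnmt3a against 46.7% of all regions, and the one bar of a gene at 8 samples is that of Tet3.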

How the data were processed

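Peaks of 5hmC were deposited as 1 list per sample, with chromosome, start, end, name and a score; the score was set by the authors' caller. Tools listed in the submitters' processing notes are MACS 1.4.2, Bowtie 0.12.9 and CASAVA 1.4, with the build mm9. The sources used here give no caller settings, background library or read numbers. Starts were converted to count from 1.

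Length under peaks was computed per interval and per window of fixed length that overlapped none of the intervals, as bp per 1000000 bp under peaks of the list. Log2 values with a pseudocount of 10 were fitted with limma 3.58.1 (R 4.3.3) with an intensity trend to all 8 samples as 4 groups, for rows with a mean of at least 10, with Benjamini-Hochberg adjustment. The threshold was an adjusted p of 0.05. A log2 difference understates changes of sparsely covered rows. Data were simulated for the age contrast over 10184 rows. Aged samples were raised by 1, 2, 3 and 4 log2 units in 50 rows each. Of these rows 12%, 56%, 58% and 98% were called, and 0.0501% of unchanged rows. The noise was normal and independent, with a spread set per row and equal in all 8 samples. A spread that differs between samples, or a floor at no peak, was not simulated, so the shares may be too high for these lists. Decreases were not simulated, so these shares do not give the power to detect a fall with age. Without scaling, the pseudocount was 500 bp. Within each interval, regions were named if they had a peak in most samples (ties by median score), were the widest, or had a peak in all samples of 1 group or age and none of the compared one (at most 2 per direction). Other regions named were chosen after their values were seen, as was leaving out samples without scaling. Alternatives are in the closing section.

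The genes and lists were chosen with earlier results of these data known. Other genes of the pathway were not analysed here, because the gene table is on GRCm38.p6.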

Additional observations from a re-analysis of the deposited data

Results flagged for a closer look

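Length under peaks at Tet1 moved in opposite directions with housing in the 2 ages before scaling to the list. Both young enriched samples (2647 and 2597 bp) lay above both young control samples (687 and 2493 bp), and both aged enriched samples (1139 and 1782 bp) lay below both aged control samples (2163 and 1895 bp). Of all intervals and windows, 5.5% showed the first order and 40.2% the second. The difference between ages in this effect was −1.11 ± 1.17 (SE, log2, without scaling) and did not pass in the limma fit (adjusted p = 0.68). After scaling it was −0.0036, with enriched above control in both ages.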

How the results depend on the processing

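The replicate numbers do not mark shared animals or batches in the labels, and differences between replicates 1 and 2 correlated between groups by −0.046 to 0.048 over 10184 rows. With the number as a block the age difference at Tet2 was −1.36 (limma adjusted p = 0.699), and the block changed no call. Of 280 values of the 16 differences under the alternatives, 244 kept direction and side of the threshold, 4 passed and 32 changed sign. The cause was not tested. The 244 include values that could not change sign, so they overstate stability. Dropping the minimum, adding the block or fitting a single age leaves the estimate as it was. The same holds for a housing difference when a sample of the other age is left out. The 4 that passed did so without scaling and are Tet2 (−2.03), Tet3 (−1.17) and Dnmt3a (−1.41) for age and Dnmt3a (−1.84) for housing in aged mice.

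Signs changed without scaling for Tet1 by age (−0.13), Tet1 (−0.38) and Tet3 (−1.17) by housing in aged mice and the Tet3 interaction (−0.86). With a score of at least 100 they changed for Tet1 housing in young mice (−0.83), the Tet1 (1.36) and Tet2 (1.05) interactions, Tet2 housing in aged mice (1.69) and Tet3 age (0.20). This cut applies a single score to all lists. It kept 72.4% of the peaks of aged enriched replicate 2 and 9.92% to 31.9% of those elsewhere. In equally long lists they changed for Tet1 housing in young mice (−0.82), the Tet1 interaction (1.26), Tet2 (0.60) and Tet3 (−0.043) housing in aged mice and Tet3 age (0.014). Of the young samples, only young control replicate 2 kept a Tet1 peak in those lists. By peak number they changed for the Tet1 interaction (0.047), Tet3 age (0.051) and Dnmt3a housing in young mice (−0.085), and with a pseudocount of 50 for the Tet1 interaction (0.13).

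Leaving out 1 sample gave −0.48 to 0.47 for the Tet1 interaction, −1.94 to 1.04 for Tet2 housing in aged mice, −2.19 to 0.79 for the Tet2 interaction, −0.26 to 0.25 for Tet3 age, −0.32 to 0.71 for Tet3 housing in aged mice, −0.10 to 0.93 for the Tet3 interaction and −0.095 to 0.31 for Dnmt3a housing in young mice. Rows called by limma ran from 0 to 119 for age, 0 to 530 for housing in aged mice and 0 to 89 for the interaction, all non-zero counts being without aged enriched replicate 1 or 2. A score of at least 100 gave 1 and 28 for age and housing in aged mice, and no scaling 3154 and 1300.

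Leaving out 1 sample in the fit without scaling was chosen after seeing the data and gave −0.47 to 0.20 for Tet1 by age, the positive value without young control replicate 2. Among the 4 genes, a score of at least 100 left 1 region of young samples only, 2 of aged control, 0 of aged enriched, 1 of young control, 0 of young enriched and 0 in all samples. Equally long lists gave 1 of young samples only and 2 of aged enriched, and merging peaks up to 500 bp apart gave 2 of young control and 1 of young enriched. Without 1 sample these counts ran from 0 to 3 for young only, 0 to 1 for control only, 6 to 32 for aged control, 1 to 15 for aged enriched, 4 to 17 for young control, 2 to 13 for young enriched and 1 to 5 for all samples. Unknown depth limits every count of missing peaks.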
